A study of Homo sapiens with 6 samples.

Results

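The FOS, JUN and EGR immediate early genes are transcription factor genes, several of which respond first when a growth signal reaches the nucleus. The 10 genes described here, FOS, FOSB, FOSL1, FOSL2, JUN, JUNB, JUND, EGR1, EGR2 and EGR3, were picked by gene name and not by any measured value, and each of them has a row among the 31999 genes of the deposited table. RNA came from HEL, a human erythroleukemia cell line, after transduction with a lentiviral small hairpin RNA against TMIGD2 (shTMIGD2, 3 libraries) or with a non-targeting control hairpin (shCtrl, 3 libraries). Poly(A) RNA was sequenced, and all libraries shared the cell line, the vector and the puromycin selection that the methods describe for transduced lines. The methods list 3 hairpins against TMIGD2, and the sources used here do not say which of them made these libraries. The labels name the replicates of each group as biological and name no cell clone. The study asked how the loss of TMIGD2, a costimulatory surface receptor, changes transcription in leukemia cells, and followed signaling through ERK, p90RSK and CREB.

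For each gene the table gives 1 level over all libraries, the authors' mean log2 CPM (counts scaled to a common library total, on a log2 scale), beside the columns of the authors' own test of shTMIGD2 against shCtrl. Those columns were not used, and there is no value per library, so the levels below average both groups, have no spread between libraries and show no effect of the knockdown. TMIGD2 itself, the targeted gene, had a mean log2 CPM of 4.08, and the depletion of its transcript could not be checked from an average over both groups.

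FOS and JUN proteins are basic leucine zipper (bZIP) factors that pair to form AP-1. JUN proteins can pair with each other or with a FOS protein, whereas FOS proteins need a JUN partner, and the dimers bind short sites named TRE and CRE. EGR proteins bind GC-rich DNA through zinc fingers and are held in check by NAB corepressors. In textbook accounts, ERK signaling switches on FOS and EGR1 through the factor SRF, which binds the CArG box, and its ELK partners. The short-lived transcripts of FOS and EGR1 decay soon after. In blood cells, AP-1 and EGR factors are known for their part in monocytic and megakaryocytic differentiation.

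JUND, EGR1 and JUNB were the highest of the 10 genes in HEL cells, both by the deposited level and per kilobase of their longest transcript, and EGR2 and EGR3 rested on few reads. The deposited level does not account for transcript length. In order of the deposited level, JUND had a mean log2 CPM of 7.54, EGR1 of 7.33, JUNB of 6.75, FOSL1 of 5.37, FOSL2 of 4.27, JUN of 4.21, FOS of 4.19 and FOSB of 2.83. EGR2 stood at -1.92 and EGR3 at -2.28. Of the 10 genes, 8 were at or above a mean log2 CPM of 0 (1 CPM) and 4 were at or above 5. Over all genes listed the shares were 43.8% and 18.8%, and over the 16339 protein-coding genes listed they were 69.1% and 35.5%. The median of the 10 genes was 4.24, beside 3.64 for protein-coding genes and -0.97 for all genes.

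**Figure D1:**
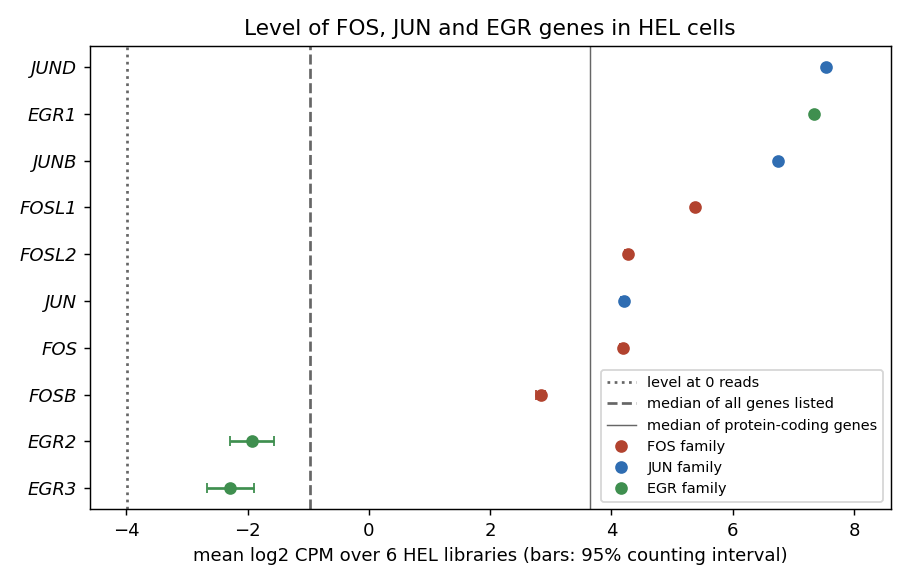
Mean log2 CPM over the 6 HEL libraries (horizontal axis) for each FOS (red), JUN (blue) and EGR (green) gene, with 95% counting intervals as bars and vertical lines at the level of 0 reads (-3.99), the median of all genes (-0.97) and the median of protein-coding genes (3.64). JUND (7.54), EGR1 (7.33) and JUNB (6.75) stand at the top, and EGR2 (-1.92) and EGR3 (-2.28) lie below the median of all genes.

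The lowest levels in the table fell into separate steps, from which the depth was worked out. The lowest step held 2234 genes with 21 distinct values, which is the number of ways in which 2 reads can fall into 6 libraries. The next step held 1492 genes with 56 distinct values, the number of ways for 3 reads. From these and the following steps, 1 read was worth 0.00526 CPM and 0 reads corresponded to 0.0631 CPM, which equals 2.00 added reads per library. The 6 libraries then held about 1.90e+08 counted reads together, or 3.17e+07 on average, while the depth of each library is unknown. Of the 12670 genes with an estimated total under 30 reads, 99.7% had an estimate within 0.1 of a whole number. Totals for genes with many reads are approximate, since the average does not weight every read alike.

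On this scale EGR3 rested on 27 reads in all 6 libraries together (exact Poisson 95% interval 17.8 to 39.3) and EGR2 on 38 reads (26.9 to 52.2). FOSB rested on about 1344 reads, FOS on 3463, JUN on 3509, FOSL2 on 3652, FOSL1 on 7864, JUNB on 20397, EGR1 on 30623 and JUND on 35360. These intervals cover counting error only, for reads without molecular identifiers. The added reads made up 30.7% of the deposited CPM of EGR3 and 24.0% of that of EGR2, against at most 0.885% for the other 8 genes. The counting intervals of EGR2 (mean log2 CPM -2.29 to -1.57) and EGR3 (-2.67 to -1.89) overlapped, so their order was not detectable at this depth. Those of FOS (4.14 to 4.24), JUN (4.16 to 4.26) and FOSL2 (4.22 to 4.31) overlapped as well. The other neighbours in the order lay outside each other's counting intervals, and whether they differ beyond the spread between libraries was not tested.

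**Figure D2:**
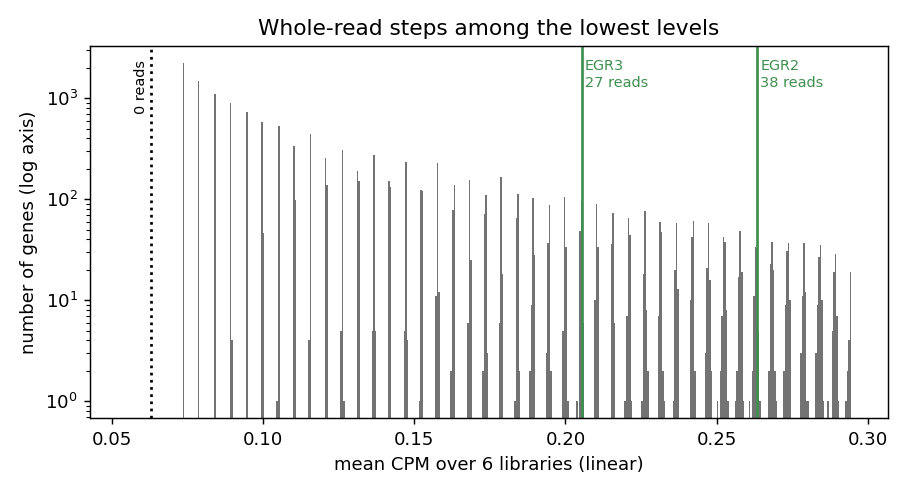
Number of genes (vertical log axis) at each mean CPM over the 6 libraries (horizontal linear axis, bins of 0.0005 CPM) for the lowest levels listed, with a dotted line at 0 reads and green lines at EGR3 (27 reads) and EGR2 (38 reads). The spikes are whole reads, each 0.00526 CPM apart.

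A long transcript yields more reads than a short one at the same number of molecules, so genes were set against each other per kilobase of the longest transcript that GENCODE 44 annotates on GRCh38. By this measure the order changed, and 6 of the 10 genes kept their place. JUND had 96.4 CPM per kilobase, JUNB 58.7 and EGR1 51.4, followed by FOSL1 with 24.3, FOS with 8.69, JUN with 5.69, FOSL2 with 2.87 and FOSB with 1.89. EGR2 had 0.0835 and EGR3 0.0455 CPM per kilobase. JUNB thus passed EGR1, and FOS passed both JUN and FOSL2. FOSL2 fell back because its longest transcript has 6713 bases, of which only 978 are coding. Per kilobase of coding sequence, 8 genes kept the place of the deposited order. FOSL2 (19.7 CPM per kilobase) again stood above JUN (17.5), and JUN above FOS (16.0). FOS, JUN and FOSL2 therefore have no order that holds for both lengths, and which transcripts HEL cells use cannot be read from the table.

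**Figure D3:**
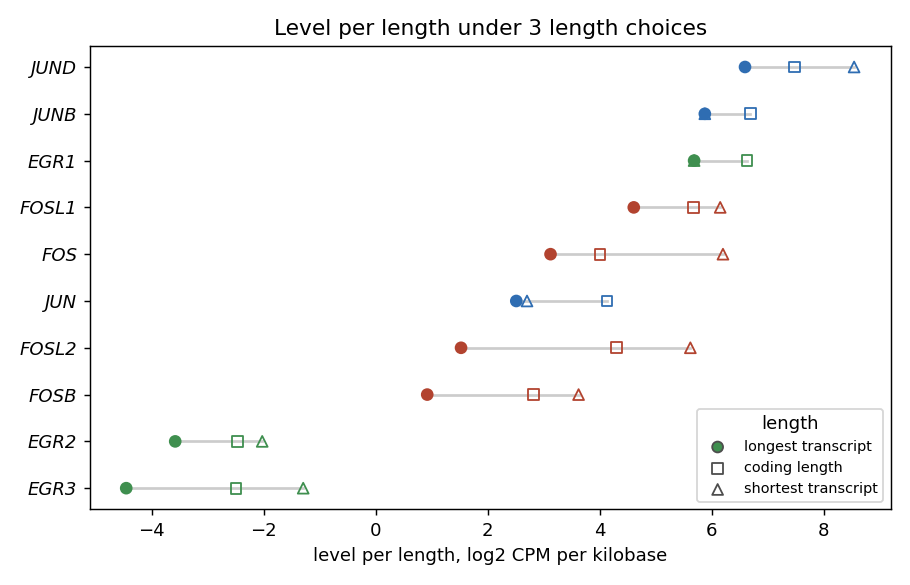
Level per length (horizontal axis, log2 CPM per kilobase) of each gene by the longest annotated transcript (filled circles), the coding length (squares) and the shortest annotated transcript (triangles), coloured by family as red for FOS, blue for JUN and green for EGR. JUND leads under all 3 lengths, and FOSL2 moves from 1.52 by the longest transcript to 4.30 by coding length.

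Among the JUN genes, which every AP-1 dimer of these families needs, JUND carried most of the transcript. JUND (chromosome 19, 18279694 to 18281622, minus strand, GRCh38, 1 exon) made up 60.0% of the summed CPM per kilobase of the 3 JUN genes, or 59.7% by coding length. JUND is known as the family member that resting cells keep expressed. JUNB (chromosome 19, 12791486 to 12793315, plus strand, 1 exon), often described as a weaker activator that restrains growth, was 1.64 times lower than JUND per kilobase of longest transcript and 1.73 times lower by coding length. JUN (chromosome 1, 58776845 to 58784048, minus strand, 1 exon in its canonical transcript), the founding AP-1 subunit, was 17.0 times lower than JUND by the longest transcript and 10.2 times lower by coding length. JUNB lies within the span of HOOK2 on the opposite strand (mean log2 CPM 3.14). The library kit keeps the strand of a read, but the strand setting of the counting is not given in the sources used here.

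Among the FOS genes, FOSL1 (chromosome 11, 65892049 to 65900573, minus strand, 4 exons in its canonical transcript), which encodes an AP-1 subunit without the activation domain of FOS, was the highest by the deposited level, the longest transcript and the coding length. By the shortest transcript FOS stood above it, at 6.20 against 6.15 on the log2 scale per kilobase. FOSL1 made up 64.4% of the summed CPM per kilobase of the 4 FOS genes, and 54.4% by coding length. FOS (chromosome 14, 75278826 to 75282230, plus strand, 4 exons) was 2.80 times lower than FOSL1 by the longest transcript and 3.18 times lower by coding length. FOSL2 (chromosome 2, 28392448 to 28417317, plus strand, 4 exons), the other subunit that lacks that domain, spans the most bases of the 10 genes and overlaps a long noncoding RNA gene on its own strand by 296 bases and FOSL2-AS1 on the opposite strand by 2233 bases. FOSB (chromosome 19, 45467995 to 45475179, plus strand, 4 exons), which also gives a shortened splice form known from neurons, was the lowest of the 4 and lies wholly within the span of ERCC1 on the opposite strand (mean log2 CPM 5.95). Summed per kilobase of longest transcript, the 3 JUN genes reached 160.8 CPM and the 4 FOS genes 37.8 CPM, and by coding length 299.3 and 93.7 CPM. JUN family transcript thus exceeded FOS family transcript under both lengths, with no replicate error to set beside the difference.

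EGR1 (chromosome 5, 138465479 to 138469303, plus strand, 2 exons), an early target of ERK signaling, made up 99.7% of the summed CPM per kilobase of the 3 EGR genes. EGR2 (chromosome 10, 62811996 to 62819167, minus strand, 2 exons in its canonical transcript), known from hindbrain and peripheral myelin and from monocytic cells, was 615 times lower than EGR1 per kilobase of longest transcript and 551 times lower by coding length. EGR3 (chromosome 8, 22687659 to 22693480, minus strand, 2 exons), known from muscle spindles and lymphocytes, was 1128 times lower by the longest transcript and 559 times lower by coding length. These ratios count the added reads of EGR2 and EGR3 as transcript. EGR4, the remaining family member, had a mean log2 CPM of -0.95 on 86 reads. EGR2 overlaps an annotated long noncoding RNA on its own strand and EGR3 overlaps one on the opposite strand, so their few reads are uncertain. In the protein-coding background, EGR1 stood at the 92.6th percentile of the deposited level, EGR2 at the 21.7th and EGR3 at the 19.4th.

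AU-rich pentamers (ATTTA) in the 3′ UTR, known marks of unstable transcripts, were counted in the canonical transcript of each gene. FOS had 5 in a 3′ UTR of 806 bases, or 6.20 per kilobase, above 94.6% of the 19170 genes with a 3′ UTR of at least 50 bases. JUNB had 2 in 500 bases (4.0 per kilobase, above 84.3% of genes) and JUN had 3 in 1284 bases (2.34 per kilobase, above 62.9%). FOSL2 had 9 in 4869 bases (1.85 per kilobase), EGR2 2 in 1211 bases (1.65) and FOSB 3 in 2167 bases (1.38). JUND (1.34 per kilobase), FOSL1 (1.19), EGR3 (1.07) and EGR1 (0.818) were below the median gene, at 1.55 per kilobase, as was FOSB. High density was therefore not shared by the 10 genes.

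The promoters were read to see which regulatory sites the genes share. RefSeq promoter windows on GRCh38.p14, from 250 bases before to 50 bases after an annotated start, matched 8 of the 10 genes, with 3 windows for EGR2. FOSL1 and EGR3 had none. Both strands were searched for the CRE (TGACGTCA), the TRE (TGAGTCA), the TRE of the JUN type (TGACATCA), the CArG box, the EGR sites GCGGGGGCG and GCGTGGGCG, the TATA box (TATAAA), the GC box (GGGCGG, which can overlap an EGR site) and an ETS site (CCGGAAG). The 5 windows shown hold the CArG boxes of EGR1 and EGR2, the highest EGR gene and one with few reads, the CRE of JUND and the TRE of the JUN type in JUN, the highest and the lowest JUN gene, and the TATA box of FOS. Each is written 5′ to 3′ on the strand of its gene, with every match other than a GC box in capitals.
EGR1 window, chr5:138465229-138465528, plus strand: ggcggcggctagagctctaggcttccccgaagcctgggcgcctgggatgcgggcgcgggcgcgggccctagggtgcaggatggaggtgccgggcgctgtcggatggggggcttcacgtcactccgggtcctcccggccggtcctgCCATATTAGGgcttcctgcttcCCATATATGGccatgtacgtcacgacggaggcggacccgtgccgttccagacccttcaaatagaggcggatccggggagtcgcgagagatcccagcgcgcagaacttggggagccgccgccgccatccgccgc
EGR2 window, chr10:62816317-62816616, minus strand: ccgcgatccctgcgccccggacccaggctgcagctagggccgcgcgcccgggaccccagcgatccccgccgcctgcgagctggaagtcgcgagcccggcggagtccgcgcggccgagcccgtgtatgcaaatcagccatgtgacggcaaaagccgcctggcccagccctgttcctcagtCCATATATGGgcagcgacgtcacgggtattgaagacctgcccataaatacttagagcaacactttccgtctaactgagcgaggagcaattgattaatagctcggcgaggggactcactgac
JUN window, chr1:58783998-58784297, minus strand: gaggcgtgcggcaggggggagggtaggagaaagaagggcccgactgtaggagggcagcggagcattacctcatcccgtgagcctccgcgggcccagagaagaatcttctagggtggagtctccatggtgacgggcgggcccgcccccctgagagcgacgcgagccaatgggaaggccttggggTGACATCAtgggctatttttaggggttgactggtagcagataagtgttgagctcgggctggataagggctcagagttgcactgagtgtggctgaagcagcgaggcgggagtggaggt
JUND window, chr19:18281573-18281872, minus strand: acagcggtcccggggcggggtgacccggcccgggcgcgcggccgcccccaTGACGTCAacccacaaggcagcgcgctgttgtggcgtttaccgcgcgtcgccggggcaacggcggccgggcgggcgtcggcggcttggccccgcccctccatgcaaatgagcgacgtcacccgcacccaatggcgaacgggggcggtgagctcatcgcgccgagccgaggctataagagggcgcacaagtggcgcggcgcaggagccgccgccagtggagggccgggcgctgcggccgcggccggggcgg
FOS window, chr14:75278578-75278877, plus strand: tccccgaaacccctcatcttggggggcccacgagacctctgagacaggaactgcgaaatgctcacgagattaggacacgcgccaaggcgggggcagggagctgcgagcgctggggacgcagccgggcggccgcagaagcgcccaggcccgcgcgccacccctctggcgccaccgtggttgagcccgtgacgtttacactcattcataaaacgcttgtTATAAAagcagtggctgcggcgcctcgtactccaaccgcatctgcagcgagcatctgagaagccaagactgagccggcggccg

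The CArG box was found in the windows of EGR1 and EGR2 and in 1.29% of all 35116 RefSeq windows. EGR1 held CCATATTAGG at positions -105 to -96 and CCATATATGG at -83 to -74, counted from the base before the start as -1. EGR2 held CCATATATGG at -71 to -62 of its innermost start. The letters CCATATATGG were thus shared by EGR1, at a mean log2 CPM of 7.33, and EGR2, at -1.92. Any bearing of the box on these levels was not tested. The CRE of JUND lay at -200 to -193 (1.85% of all windows hold one). The TRE of the JUN type lay at -67 to -60 of JUN (2.61% of all windows). The TATA box was found in FOS, FOSB and JUNB, starting at -33, -30 and -31 (11.5% of all windows). FOSL2 had a TRE after its start, at 5 to 11 on the minus strand of the window (4.95% of all windows). GC boxes were found in 6 genes (45.0% of all windows). Neither the EGR letters searched (5.77%) nor the ETS letters CCGGAAG (10.3%) were found in any window of these genes. Apart from the CArG box, each site was searched only in the letters given. Other or shorter forms were not searched, so the absence of a site from a window is not shown. For instance, tgacgttt in the FOS window, which differs from the CRE letters at its end, was not counted. A match is a run of letters in the reference and not a measured binding site, and which starts HEL cells use was not measured. Bases further than 250 before a start were not searched. A window without a match, such as that of FOS for the CArG box, therefore does not show that the gene lacks the site.

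**Figure D4:**
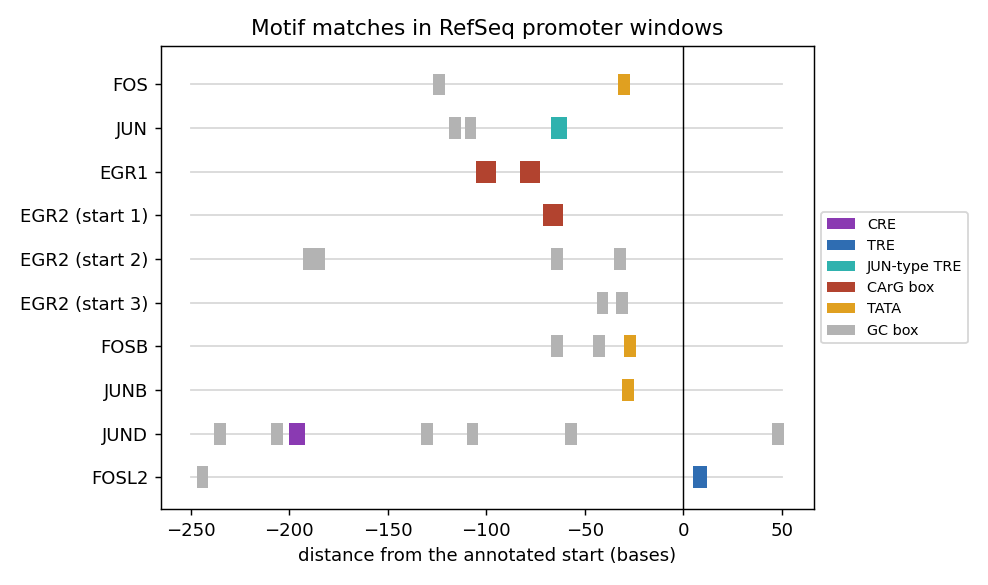
Matches to 6 motifs (coloured bars) by distance from the annotated start (horizontal axis, bases) in the promoter windows of FOS, JUN, EGR1, EGR2 (3 starts, with start 1 the innermost), FOSB, JUNB, JUND and FOSL2. Within these windows, CArG boxes (red) stand only in EGR1 and in the innermost EGR2 window, and the letters TATAAA (yellow) only in FOS, FOSB and JUNB.

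Most genes around the AP-1 and EGR factors were at or above a mean log2 CPM of 0, as were 69.1% of protein-coding genes. Of the protein-coding genes, 35.5% were at or above 5. Of 21 genes that carry ERK and JNK signals to SRF and JUN, 19 (90.5%) were at or above a mean log2 CPM of 0. At or above 5 were 14 (66.7%), and the median was 5.78. RPS6KA1, which encodes a p90RSK kinase, had the highest deposited level of the list and 6.44 on the log2 scale per kilobase of longest transcript. RPS6KA2, another p90RSK gene, rested on 13 reads, and MAPK10, the JNK gene known from neurons, on 116. SRF itself, the factor that binds the CArG box, had a mean log2 CPM of 6.52.

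Of 24 other bZIP genes, 23 were listed, with a median of 3.92. Of these, 20 (87.0%) were at or above 0 and 9 (39.1%) at or above 5, the latter near the 35.5% of protein-coding genes. NFE2, an erythroid and megakaryocytic factor, had 8.09 on the log2 scale per kilobase, ATF4, the effector of the integrated stress response, 7.82, and BACH1, a heme-regulated repressor, 4.79. JUND, at 6.59 on the same scale, lay between ATF4 and BACH1. ATF7 rested on 31 reads, and MAF has no row. The read-through gene ATF7-NPFF is annotated over ATF7 on the same strand. Whether reads of ATF7 were lost to it was not tested, so this count is uncertain. Of the EGR partners, the corepressor genes NAB1 and NAB2 had mean log2 CPM of 5.66 and 4.17, and WT1, whose zinc fingers resemble those of EGR proteins, 5.32.

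Of 30 other immediate early genes, 28 were listed, with a median of 3.67. Of these, 22 (78.6%) were at or above 0 and 10 (35.7%) at or above 5, the latter near the 35.5% of protein-coding genes. MYC (7.50 on the log2 scale per kilobase), MCL1 (5.68), a survival gene, and ZFP36L2 (5.73), which encodes a protein that binds AU-rich RNA, were the highest by deposited level. ARC, known from neurons, rested on 6 reads and KLF4 on 8. CCN2 and PER1 have no row under these or older names. Levels in this list thus ran from 7.50 for MYC to -4.96 for ARC on the log2 scale per kilobase, beside 6.59 for JUND to -4.46 for EGR3 among the FOS, JUN and EGR genes.

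**Figure D5:**
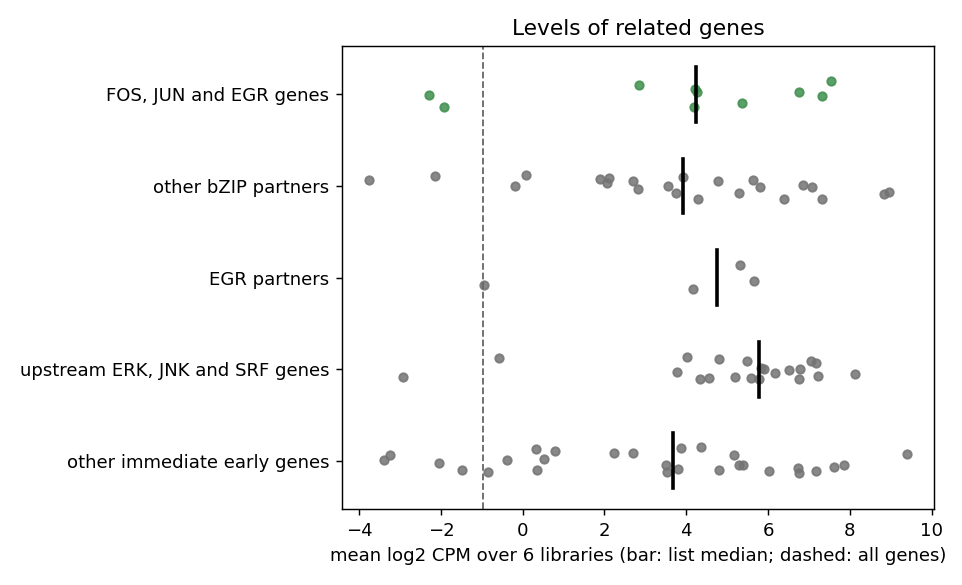
Mean log2 CPM over the 6 libraries (horizontal axis) of the FOS, JUN and EGR genes (green) and of 4 lists of related genes (grey), 1 point per gene, with bars at list medians and a dashed line at the median of all genes (-0.97). The medians run from 3.67 for other immediate early genes to 5.78 for the upstream ERK, JNK and SRF genes.

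The label of the cell line was checked against marker genes. All 10 erythroid markers and all 8 megakaryocyte markers were at or above a mean log2 CPM of 5. Of the T cell markers, CD3D, CD3E and TRBC1 have no row, CD3G rested on 3 reads and CD2 had a mean log2 CPM of 2.95. The B cell marker MS4A1 has no row. Of the 4 B cell markers listed, CD79A and CD79B were at or above 0, with mean log2 CPM of 2.32 and 1.46. The monocyte marker CD14 rested on 18 reads and the epithelial marker EPCAM on 20. Of the same lists, LYZ and KRT18 had mean log2 CPM of 4.40 and 3.26, KRT8 rested on 768 reads and CSF1R on 215.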

How the data were processed

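Poly(A) RNA of 3 shCtrl and 3 shTMIGD2 HEL libraries, grouped by their labels, was sequenced. Per the paper's methods and the submitters' processing notes, the authors aligned reads to hg38 with STAR 2.6.1b and counted fragments per RefSeq gene with HTSeq 0.6.1. The table lists genes with as few as 2 reads in all, below the minimum mean count that the methods give for their DESeq2 analysis. The deposited table holds 1 log2 value per gene used here, the authors' mean log2 CPM over all libraries. Its other 4 columns, the log2 fold change, F statistic, p-value and adjusted p of the authors' edgeR test, were not used. The planned test between groups needs values per library, so none was made.

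Reads were estimated from the steps of the lowest levels, after the method was checked on simulated data. Exact Poisson 95% intervals cover counting error only. Percentiles are shares of genes with a lower level. Lengths, 3′ UTRs and positions come from GENCODE 44, not the annotation used for counting, where 22987 names (71.8%) matched by symbol. Of the names listed, 24 were dates made by a spreadsheet and were left as they are. Promoter windows come from RefSeq on GRCh38.p14. The members, gene lists, motifs and markers were chosen with earlier results of these data known. AU-rich pentamers and overlapping genes were added after the levels had been seen. Named genes are the 10 members, TMIGD2, and of each list the 3 highest and 2 lowest by level and any gene without a row, except that some of these are not reported here. SRF, single marker genes and overlapping genes were named after their values were seen. Python 3.11.15, numpy 2.4.6, pandas 2.3.3 and scipy 1.17.1 were used.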

Additional observations from a re-analysis of the deposited data

How the results depend on the processing

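No paired analysis was possible because levels are given only as a mean over all libraries. For the same reason no library could be left out. The planned comparison of proteins between members was not run, since no protein sequences were used here. The levels of the 8 genes from FOSB upward moved by less than their counting interval when the lowest CPM listed was subtracted, and all 10 genes kept their place in the order. EGR2 moved to -2.40 and EGR3 to -2.92, since the lowest CPM listed is a large share of theirs. By coding length, the log2 level per kilobase was 4.003 for FOS, 2.81 for FOSB, 5.67 for FOSL1, 4.30 for FOSL2, 4.13 for JUN, 6.69 for JUNB, 7.48 for JUND, 6.63 for EGR1, -2.48 for EGR2 and -2.50 for EGR3. By the shortest transcript it was 6.20 for FOS, 3.62 for FOSB, 6.15 for FOSL1, 5.62 for FOSL2, 2.70 for JUN, 8.54 for JUND, -2.03 for EGR2 and -1.30 for EGR3, and JUNB and EGR1 have 1 annotated transcript each. Of the 10 genes, 6 kept their place in the order per kilobase of longest transcript, 8 by coding length and 1 by the shortest transcript. With only bases before the start, the share of promoters with a match was 1.65% for the CRE, 4.20% for the TRE, 2.37% for the TRE of the JUN type, 1.16% for the CArG box, 5.37% for EGR sites, 10.7% for the TATA box, 42.6% for the GC box and 8.52% for the ETS site, since the window is shorter. Against other sets of genes the percentiles moved for every gene, for JUND from 96.7 among all genes to 93.8 among protein-coding genes and 92.5 among genes at or above 1 CPM. Depth limits EGR2 and EGR3, whose reads are too few to order them.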
